A study of Homo sapiens with 3 samples.

Results

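The NRF2 oxidative stress pathway was described here by 9 genes in HCT-116 cells: the transcription factor gene *NFE2L2*, its inhibitor *KEAP1*, and the targets *GCLC*, *GCLM*, *TXNRD1*, *SRXN1*, *NQO1*, *HMOX1* and *OSGIN1*. They were taken by gene symbol, and all 9 were found among the 23131 gene symbols of the authors' deposited table. HCT-116 is a human colon carcinoma line that carries wild-type APC and a β-catenin lacking Ser45, and both features are shared by every library. The series has 3 libraries, 1 each for cells given pooled siRNA against *APC*, cells given a pool of scrambled siRNA, and cells given no siRNA. The siRNA pools were delivered on consecutive days with the transfection reagent Dharmafect 2 (4 μL, with 5 μL of 10 μM siRNA), and RNA was collected 48 hours after the second transfection. The control without siRNA is titled untransfected in the sample labels, whereas their treatment field describes a mock transfection with reagent alone. The table lists transcript levels for the cells given *APC* siRNA and those given none, called siAPC and untransfected here; the library with scrambled siRNA was not analysed here. From the values used here, the effect of losing *APC* and that of delivering any siRNA therefore cannot be told apart. With 1 library per condition, differences have no replicate check and no *p*-value is given.

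NRF2, the protein encoded by *NFE2L2*, is the main transcriptional activator of the antioxidant response. In unstressed cells KEAP1 holds NRF2 in a CUL3 ubiquitin ligase complex and it is degraded; oxidants and electrophiles modify cysteines of KEAP1, so that NRF2 accumulates, pairs with a small MAF protein and binds antioxidant response elements. Its targets make glutathione, reduce thioredoxin, peroxiredoxins and quinones, and break down heme. Because NRF2 is controlled largely at the level of protein stability, the transcripts of its targets are the usual readout of its activity in RNA data. The genes were examined here as a check on stress from transfection. If the control without siRNA received the reagent alone, as its treatment field states, any stress from the reagent would be present in both libraries. The ratios could then not show it.

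The antioxidant response element was searched near the members because NRF2 acts on its targets through this sequence. Binding of NRF2 was not measured here. The letters TGACTNAGC, a strict form of the element, were searched on both strands from 5000 bases before to 100 bases after the start of each gene's canonical GENCODE 44 transcript on GRCh37. A match was found for 5 of the 9 members, against 14.0% of the windows of 19129 protein-coding genes. Within 1000 bases upstream it was found for 2 of the 9 (*NQO1* and *GCLM*), against 3.08% of windows. The members were listed as the gene of NRF2, its inhibitor and 7 known targets, so their share is a description and not a finding of these data. The 5 matches follow with 15 bases on each side, read 5′ to 3′ on the strand that carries the element, and the capitals mark the element.
*NQO1*, 455 bases before the start (chromosome 16, 69760895 to 69760933, minus strand): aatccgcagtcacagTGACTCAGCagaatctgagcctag
*GCLM*, 34 bases before the start (chromosome 1, 94374997 to 94375035, plus strand): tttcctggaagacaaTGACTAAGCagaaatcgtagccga
*HMOX1*, 3940 bases before the start (chromosome 22, 35773134 to 35773172, minus strand): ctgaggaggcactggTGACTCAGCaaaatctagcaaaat
*GCLC*, 3156 bases before the start (chromosome 6, 53413032 to 53413070, plus strand): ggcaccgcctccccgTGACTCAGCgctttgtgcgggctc
*NFE2L2*, 3427 bases before the start (chromosome 2, 178132859 to 178132897, minus strand): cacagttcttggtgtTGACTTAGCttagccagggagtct

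The elements of *NQO1*, *HMOX1* and *GCLC* have the same 9 letters and include TGACTCA, the letters of an AP-1 site. For *KEAP1*, *TXNRD1*, *SRXN1* and *OSGIN1* these letters were not in the window. With the looser letters TGACNNNGC, 8 of the 9 members matched, and so did 84.5% of all windows.

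Levels are given as FPKM, a read count divided by transcript length and by the depth of the library, so they can be compared between genes. A gene was counted where the mean of the 2 libraries was at least 1 FPKM and both values were above 0, which held for 12063 genes and for all 9 members. Differences are log2 ratios of FPKM, siAPC over untransfected, without a pseudocount, and a gene is called higher or lower where it passes 1.5-fold. Over all counted genes the median log2 ratio was -0.05, and 90% of genes lay between -0.65 and 0.39. The file gives no read counts. Among 2639 genes below 0.5 FPKM, however, 355 shared 1 log2 ratio (0.13, within 0.005), and 177 and 131 genes lay 1 below and 1 above it to the same tolerance, as values made of 1 or 2 whole reads do. With transcript lengths this places the depth near 25400000 reads for the untransfected and 23200000 reads for the siAPC library. Approximate 95% intervals (exact binomial, from the reads these depths imply) are given beside the log2 ratios of the 9 members and of some other genes. They cover counting error only and not the spread between cultures. *APC* itself, the target of the siRNA, had 3.43 FPKM in the siAPC and 9.15 FPKM in the untransfected library. Of 9 colon epithelial markers, *EPCAM*, *CDH1*, *KRT8*, *KRT18*, *KRT19* and *CDX2* were above 6 FPKM in both libraries, whereas *KRT20*, *CDH17* and *VIL1* were below 1 FPKM in both. The 6 expressed markers were all at a lower level in siAPC, with log2 ratios from -0.65 to -0.12, and *CDH1*, which encodes E-cadherin, passed 1.5-fold (12.1 FPKM in siAPC, 19.0 FPKM in untransfected cells). Over all counted genes, 58.6% had a ratio below 1 and 6.61% were at least 1.5-fold lower. Only the interval of *CDX2*, -0.28 to 0.05, held 0. Of genes with a mean within 2-fold, from 2.70% (*CDH1*) to 45.3% (*CDX2*) were lower by at least as much. The part of these markers in the differences of the NRF2 genes was not tested. Of 7 markers of other cells, 5 were below 0.5 FPKM in both libraries, the exceptions being *COL1A1* (3.08 FPKM in siAPC, 2.85 FPKM in untransfected cells) and *ACTA2* (1.85 and 2.20 FPKM).

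The 9 genes did not differ in 1 direction. *NQO1* and *OSGIN1* were lower in siAPC by more than 1.5-fold, *HMOX1* was higher by just under that, *TXNRD1* was higher by less, and the 2 subunits of the enzyme that begins glutathione synthesis were close to equal in both libraries. No member was higher by at least 1.5-fold, where 2.56% of all counted genes were, and 2 of 9 were lower, where 6.61% of all counted genes were. The log2 ratio was above 0 for 4 members and below 0 for 5, with a median of -0.13. Subtracting the median of all genes changed none of these directions, but the calls became 1 higher (*HMOX1*) and 1 lower (*NQO1*). The counting intervals of *HMOX1* and *OSGIN1* both hold the 1.5-fold line.

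**Figure D1:**
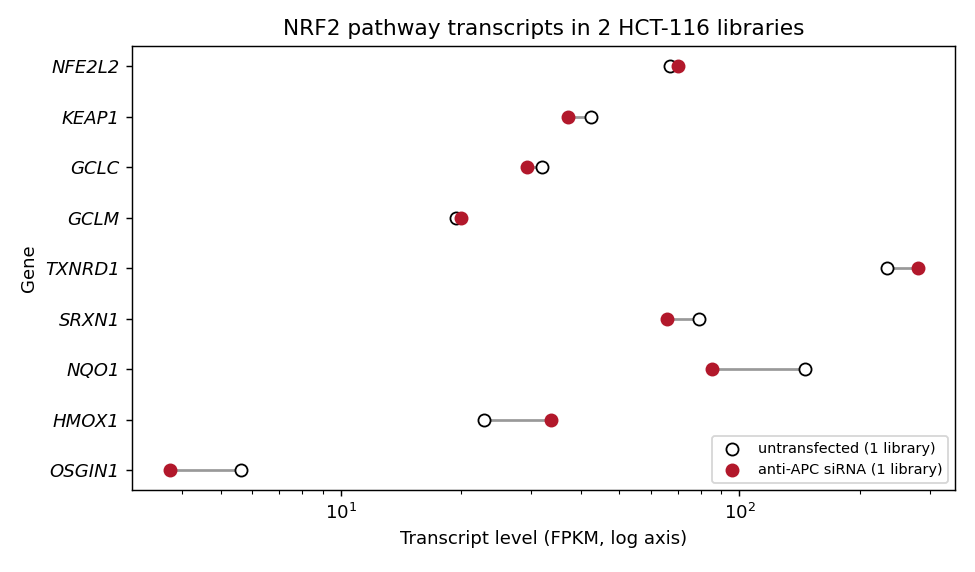
Transcript level (FPKM, log axis) of the 9 genes in the untransfected (open circles) and the siAPC library (filled circles), 1 library each, joined by a line per gene. The levels run from 3.73 FPKM for OSGIN1 to 281 FPKM for TXNRD1, and the widest shift to a lower level is that of NQO1, from 146 to 85.1 FPKM.

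In the untransfected library the order of levels was *TXNRD1*, *NQO1*, *SRXN1*, *NFE2L2*, *KEAP1*, *GCLC*, *HMOX1*, *GCLM* and *OSGIN1*. All except *OSGIN1* were above the median of counted genes, 13.8 FPKM. In the siAPC library the order was the same but for 2 exchanges of neighbors: *NFE2L2* stood above *SRXN1*, and *HMOX1* above *GCLC*. Which neighbors differ beyond the spread between cultures cannot be given with 1 library each.

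*NFE2L2*, which encodes NRF2 and lies on chromosome 2 (GRCh37, 178083395 to 178257484), stood at 70.0 FPKM in siAPC and 67.0 FPKM in untransfected cells. The ratio was 1.05, a log2 ratio of 0.06 with a counting interval of 0.0011 to 0.13. Of 2350 genes with a mean within 2-fold of its own, 36.5% were higher by at least as much. *KEAP1*, which encodes the adaptor that brings NRF2 to its ubiquitin ligase (chromosome 19, 10596801 to 10614234), had 37.2 FPKM in siAPC and 42.5 FPKM in untransfected cells. This is 0.876 of the untransfected level, a log2 ratio of -0.19 (interval -0.27 to -0.11), and 19.7% of 3434 genes of like level were lower by at least as much. The transcripts of the activator and its inhibitor thus both lay well within 1.5-fold. Within a library, where scaling plays no part, there were 0.634 *KEAP1* transcripts per *NFE2L2* transcript in untransfected cells and 0.531 in siAPC. *NFE2L2* shares its locus in the table with the microRNA gene *MIR3128*, which is listed at 0 in both libraries.

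*GCLC* (chromosome 6, 53362139 to 53481768) and *GCLM* (chromosome 1, 94350755 to 94375012) encode the catalytic and the modifier subunit of glutamate-cysteine ligase, the rate-limiting enzyme of glutathione synthesis. *GCLC* had 29.3 FPKM in siAPC and 32.0 FPKM in untransfected cells, a log2 ratio of -0.13 (interval -0.20 to -0.049). *GCLM* had 20.0 and 19.5 FPKM, a log2 ratio of 0.04 (interval -0.045 to 0.12). Neither passed 1.5-fold, and without centring the interval of *GCLM* was the only one among the 9 members that held 0. Genes of like level differed at least as far in the same direction in 31.2% of cases for *GCLC* and 36.7% for *GCLM*. The modifier transcript stood at 0.608 of the catalytic transcript in untransfected cells and 0.682 in siAPC.

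*TXNRD1* encodes cytosolic thioredoxin reductase, a selenoprotein that returns oxidized thioredoxin to its reduced form. It lies on chromosome 12 from 104609557 to 104744085 and was the most abundant member, with 281 FPKM in siAPC and 234 FPKM in untransfected cells. It was 1.20-fold higher, a log2 ratio of 0.26 (interval 0.23 to 0.29), and 9.95% of 563 genes of like level were higher by at least as much. The table places *EID3* at the same locus, with 1.09 FPKM in the siAPC and 1.03 FPKM in the untransfected library. *SRXN1*, which encodes sulfiredoxin, the enzyme that repairs over-oxidized peroxiredoxins (chromosome 20, 627259 to 633844), went the other way. Its level was 65.7 FPKM in siAPC and 79.3 FPKM in untransfected cells, a log2 ratio of -0.27 (interval -0.33 to -0.21), and 10.5% of 2219 genes of like level were lower by at least as much. These 2 enzymes of the thioredoxin system therefore differed in direction, each by less than 1.5-fold.

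*NQO1* encodes a quinone reductase that uses NADH or NADPH and is among the most widely used markers of NRF2 activity. It lies on chromosome 16 from 69740899 to 69760571, on the minus strand. Its level was 85.1 FPKM in siAPC and 146 FPKM in untransfected cells, 1.71-fold lower, with a log2 ratio of -0.78 (interval -0.83 to -0.73). Of 1403 genes with a mean within 2-fold of its own, 18 (1.28%) were lower by at least as much. This was the widest difference among the 9 members, and it rests on an estimated 4971 and 9326 reads. *NQO1* was alone at its locus in the table.

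*HMOX1* encodes heme oxygenase 1, which opens heme to biliverdin, iron and carbon monoxide, and which responds to heme, metals and other stresses as well as to NRF2. It lies on chromosome 22 from 35776354 to 35790207. Its level was 33.6 FPKM in siAPC and 22.9 FPKM in untransfected cells, 1.47-fold higher, with a log2 ratio of 0.55 (interval 0.43 to 0.68). Of 4057 genes of like level, 74 (1.82%) were higher by at least as much. The 1.5-fold line (0.58 on the log2 scale) lies inside the interval of *HMOX1*, and once the median of all genes was subtracted its log2 ratio was 0.61, past that line. *HMOX1* and *NQO1*, whose elements shown above share their 9 letters, thus differed in direction. In untransfected cells there were 0.157 *HMOX1* transcripts per *NQO1* transcript and in siAPC 0.395. This 2.51-fold difference does not depend on how the libraries are scaled. *HMOX1* and *NQO1* have the highest and the lowest log2 ratio of the 9 members, so no other pair of members differs more.

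*OSGIN1* encodes a stress-induced inhibitor of cell growth (chromosome 16, 83964916 to 83999937) and had the lowest level of the 9. It had 3.73 FPKM in siAPC and 5.61 FPKM in untransfected cells, 1.51-fold lower, with a log2 ratio of -0.59. Its counting interval of -0.88 to -0.31 rests on an estimated 166 and 274 reads, the fewest among the members, and holds the 1.5-fold line. Genes of like level were lower by at least as much in 8.95% of 3463 cases. With 1 FPKM added to both values its log2 ratio was -0.48, within 1.5-fold, so its call depends on the scale.

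**Figure D2:**
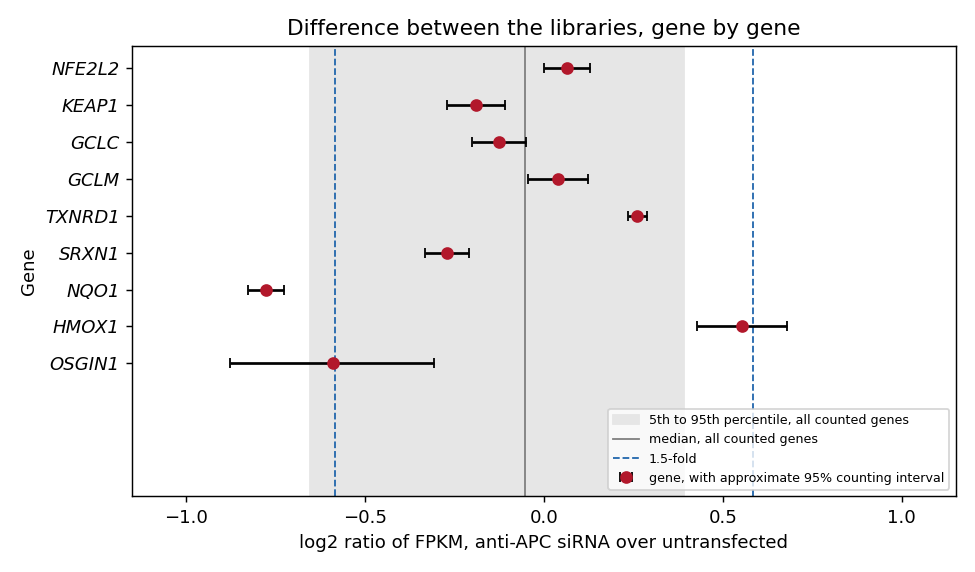
Log2 ratio of FPKM (siAPC over untransfected, 1 library each) of the 9 genes, with approximate 95% counting intervals as bars; the gray band spans the 5th to the 95th percentile of the 12063 counted genes and the dashed lines mark 1.5-fold. NQO1 at -0.78 and HMOX1 at 0.55 lie outside the band on opposite sides, and the intervals of HMOX1 and OSGIN1 cross a dashed line.

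**Figure D3:**
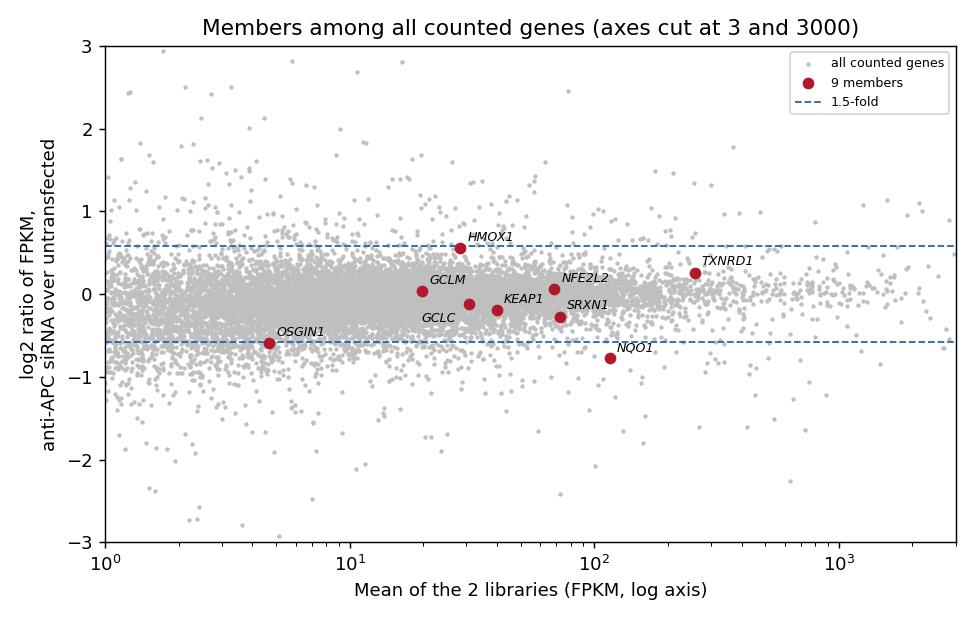
Log2 ratio of FPKM against the mean of both libraries (FPKM, log axis) for all counted genes (gray) and the 9 members (filled, named); 26 genes lie outside the axes. NQO1 sits below and HMOX1 above the bulk of genes of like level, whereas NFE2L2, KEAP1, GCLC and GCLM sit inside it.

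In terms of counting error alone, the intervals of 3 members lay above 0, those of 5 below 0, and that of 1 held 0. These counts depend on scaling. Subtracting the all-gene median (-0.053) would move the lower bound of *GCLM* (-0.045) and the upper bound of *GCLC* (-0.049) above 0. *GCLM* would then lie above 0 and *GCLC* would hold 0. The lower bound of *NFE2L2*, 0.0011, is smaller than the tolerance of 0.005 used in estimating the depths. At these depths even a small ratio such as that of *TXNRD1* exceeds its counting error, whereas the ratios of genes of like level also carry any difference between the cultures. Of the 9 members, 7 were alone at their locus. GENCODE 44 also annotates a long noncoding RNA on the opposite strand at *NFE2L2*, *NQO1*, *GCLC* and *TXNRD1*; these were not analysed here, and the labelled kit does not mark strand, so their reads cannot be told apart from those of the member. On the same strand it places a protein-coding gene at *SRXN1*, a long noncoding RNA at *KEAP1* and the pseudogene *RPL18AP3* at *TXNRD1*, also not analysed here. At *OSGIN1*, the member with the fewest reads, the protein-coding gene *MLYCD* overlaps on the same strand by 2379 bases in this annotation. The authors' table gives *MLYCD* a locus of its own, with 3.46 FPKM in siAPC and 3.40 FPKM in untransfected cells, and how reads in the overlap were divided was not tested. The RNA is that of a whole culture, where fewer cells expressing a gene and less RNA per cell cannot be told apart.

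A wider list of 52 NRF2 partners and targets was then counted by role. It was chosen with earlier results of these data known, so its counts are a description. All 52 symbols were in the table and 39 passed the minimum of 1 FPKM. Of these 39, none was higher by at least 1.5-fold, where 2.56% of all counted genes were. Only 1 was lower by at least 1.5-fold, which is also 2.56%, here of the list, against 6.61% of all counted genes. The ratio was below 1 for 29 of the 39, with a median log2 ratio of -0.11, where it was below 1 for 58.6% of all counted genes, with a median of -0.05. The 6 expressed epithelial markers had ratios on the same side.

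Among the 10 partners and regulators of NRF2, 5 ratios were above 1 and 5 below, and none passed 1.5-fold. *RBX1*, the RING subunit of the CUL3 ligase, had 73.1 FPKM in siAPC and 71.5 FPKM in untransfected cells, and *PGAM5*, a mitochondrial phosphatase bound by KEAP1, had 69.0 and 74.7 FPKM. *SQSTM1*, which encodes the autophagy adaptor p62 that competes with NRF2 for KEAP1, had 82.3 and 110 FPKM, a log2 ratio of -0.42. The table places it at a locus of 4 genes. *CUL3*, the scaffold of the ligase, had 37.8 and 31.4 FPKM, and *BTRC*, the adaptor of a second NRF2 ligase, 8.86 and 12.7 FPKM. The small MAF partners *MAFF*, *MAFG* and *MAFK* had log2 ratios of -0.08, 0.27 and 0.16, and *BACH1*, the repressor that competes with NRF2 at *HMOX1*, had 9.93 and 9.66 FPKM, a log2 ratio of 0.04.

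Of 14 genes of glutathione use and export, 10 were counted and 8 of these had a ratio below 1. *ABCC3*, an exporter of glutathione and glucuronide conjugates, was the gene of the wider list that passed 1.5-fold. It had 1.90 FPKM in siAPC and 6.02 FPKM in untransfected cells, a log2 ratio of -1.66 (interval -1.87 to -1.46). *GSTP1*, the most abundant glutathione transferase here, had 263 and 388 FPKM, a log2 ratio of -0.56. *GPX4*, which reduces lipid peroxides, had 165 and 188 FPKM, and *MGST1*, a membrane-bound transferase, 99.0 and 136 FPKM. *SLC7A11*, the cystine importer that feeds glutathione synthesis, had the highest ratio of the role, with 8.88 and 6.57 FPKM and a log2 ratio of 0.44, at a locus of 3 genes.

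The abundant thioredoxin partners differed little. *PRDX1* had 1053 FPKM in siAPC and 1103 FPKM in untransfected cells, *TXN* 576 and 621 FPKM, and *PRDX6* 231 and 213 FPKM. *TXNIP* is listed at 0 in both libraries, as are *CBR1* and *GSTM3*, and these 3 rows are marked as not tested by the authors' software. A listed 0 elsewhere can be a failed estimate, since all 269 rows marked as failed are at 0, but these 3 rows do not carry that mark. What their 0 stands for was not tested. Of 9 genes of quinone, aldehyde and drug metabolism, only *EPHX1*, an epoxide hydrolase, was counted, with 22.0 and 24.7 FPKM. The aldo-keto reductase genes *AKR1B10*, *AKR1C1*, *AKR1C2* and *AKR1C3*, strong NRF2 targets in other cells, were below 0.5 FPKM in both libraries, where their ratios cannot be read.

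All 6 genes of heme and iron handling and all 6 genes of NADPH supply had ratios below 1, as did 58.6% of all counted genes. They stayed below 0 on the log2 scale after the median of all genes was subtracted. None of these genes passed 1.5-fold. In the heme group, genes of like level were lower by at least as much in 4.52% (*BLVRB*) to 51.3% (*SLC48A1*) of cases. In the NADPH group this share ran from 12.8% (*TKT*) to 37.3% (*IDH1*). The iron storage subunits *FTL* and *FTH1* had 932 and 543 FPKM in siAPC against 1222 and 641 FPKM in untransfected cells, log2 ratios of -0.39 and -0.24. *BLVRA*, which encodes the reductase of the biliverdin that heme oxygenase makes, had 21.4 and 24.4 FPKM, and *BLVRB*, a second biliverdin reductase, 28.6 and 39.5 FPKM, a log2 ratio of -0.46. *HMOX1*, with its log2 ratio of 0.55, thus stood apart in sign from all 6. In the NADPH group *IDH1*, a cytosolic isocitrate dehydrogenase, had a log2 ratio of -0.09. *TKT*, *TALDO1* and *PGD*, the most abundant of the group, had 204, 124 and 98.5 FPKM in siAPC and 245, 133 and 107 FPKM in untransfected cells. Among the remaining targets, *TRIM16* had 16.7 and 12.8 FPKM and *PIR* 14.6 and 18.7 FPKM. *TRIM16L*, which shares sequence with *TRIM16*, had 10.4 and 9.96 FPKM, and the division of reads between them is uncertain.

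**Figure D4:**
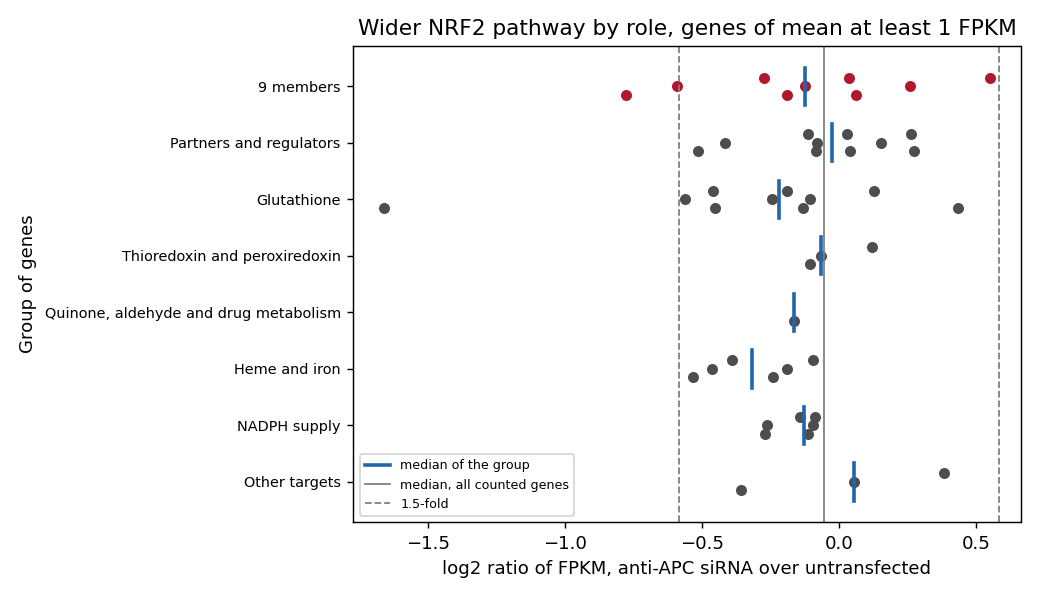
Log2 ratio of FPKM (siAPC over untransfected, 1 library each) for the 9 members and for the counted genes of the wider list by role, 1 point per gene, with the group median as a short bar; dashed lines mark 1.5-fold and the gray line the median of all counted genes. All 12 points of the heme and iron and NADPH groups lie left of 0, and ABCC3 at -1.66 is the only point of the wider list past a dashed line.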

How the data were processed

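Single-read TruSeq libraries of HCT-116 cells were sequenced by the authors, who quantified transcripts with Cufflinks and Cuffdiff. Per the labels' processing notes the build was hg19; versions, aligner and annotation are not given in the sources used here. The values the authors deposited are FPKM, 1 column for the anti-*APC* and 1 for the untransfected library. Their own log ratio, test statistic, *p*, *q* and significance were not used. The members and lists were chosen with earlier results of these data known. With 1 library per condition no test was run: log2 ratios were computed per gene, over 12063 genes with a mean of at least 1 FPKM, and genes past 1.5-fold were counted. Genes within 2-fold in mean FPKM served as those of like level. Depth was estimated from the FPKM of single reads in 76 genes, out of 230 with transcripts of 1000 to 6000 bases. These 76 were kept because their estimates lay near the most common one, and counting intervals from that depth are approximate. These steps were run on simulated data made with the same transcript lengths, so an error in the lengths would not show. All members are named, with the counted genes of the wider and comparison lists past 1.5-fold. The 3 most abundant counted genes of each role of the wider list are also named, but not all of those of the comparison lists. Further genes of these lists were named after their values were seen. Coordinates are those of GENCODE 44 on GRCh37, 1-based. Elements were not searched on chromosome 8. Alternatives were pseudocounts, median centring, level filters, folds and loci with 1 gene. Python 3.11.15, numpy 2.4.6, pandas 2.3.3, scipy 1.17.1 and matplotlib 3.10.9 were used.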

Additional observations from a re-analysis of the deposited data

How the results depend on the processing

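Each comparison rests on 1 library per condition, so the values below show the effect of scale and threshold only. No paired analysis was possible because each condition has 1 library and no result comes from a test. The alternative with scrambled siRNA as the control was not run. The number of members lower past the fold threshold, 1.5 in the main setting, was 2. It was 1 with 0.1 or 1 added to both values, with the median subtracted or with a mean of at least 5 FPKM, where *OSGIN1* was lost each time, and 0 at a fold of 2. The number at least 1.5-fold higher went from 0 to 1 with the median subtracted (*HMOX1*) and at a lower fold threshold. With the median subtracted, *NQO1* was at -0.72 and *TXNRD1* at 0.31. In the wider list, 0 genes were higher and 1 lower; these became 2 and 5 with no level filter, 2 and 10 at a lower fold threshold, and none was lower with a mean of at least 5 FPKM. Over all genes, 309 were higher and 797 lower. These became 1084 and 2078 with no level filter, 186 and 347 with a mean of at least 5 FPKM, 865 and 2219 at a lower fold threshold, and 115 and 165 at a fold of 2. With 1 added 448 were lower, and among loci with 1 gene 182 were higher. Of the alternatives run, only subtracting the median could change the sign of a member's log2 ratio, and it changed none.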

Other observations

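Other stress programs were read in the same libraries beside the NRF2 targets. Of 11 genes of the ATF4 response, the program that answers amino acid shortage and unfolded protein, 10 were counted. With anti-*APC* siRNA 2 were higher and 1 lower by at least 1.5-fold, where 2.56% and 6.61% of all counted genes were. *ATF3*, a stress-induced transcription factor, had 31.1 FPKM with and 15.7 FPKM without, a log2 ratio of 0.99. *SESN2*, an inhibitor of mTORC1 that is also an NRF2 target in other settings, had 7.55 and 4.21 FPKM, a log2 ratio of 0.84. *DDIT4*, another inhibitor of mTORC1, was lower, with 21.7 and 49.9 FPKM and a log2 ratio of -1.20. *DDIT3*, also on this list, was higher by just under 1.5-fold, with 45.3 and 31.7 FPKM and a log2 ratio of 0.51 (interval 0.37 to 0.65). Genes of like level were higher by at least as much in 1.98% of cases. The table places *DDIT3* at a locus of 2 genes. *ATF4* itself had 213 and 236 FPKM.

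Of 8 metallothionein genes, which encode metal-binding proteins, 6 were counted. *MT2A* (412 FPKM with anti-*APC* siRNA, 623 FPKM without) and *MT1G* (9.62 and 14.8 FPKM) were lower by at least 1.5-fold and *MT1F* (6.89 and 4.27 FPKM) was higher. These genes are close in sequence, and the division of reads among them is uncertain. Of 7 inducible heat shock genes, 6 were counted and none passed 1.5-fold. Their log2 ratios ran from -0.28 (*BAG3*) to 0.11 (*HSPH1*). *HSPA1A*, which has a near-identical copy in *HSPA1B*, had 68.6 and 71.3 FPKM. Over all counted genes 2.56% were higher and 6.61% lower by at least 1.5-fold.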
